A study of Saccharomyces cerevisiae with 5 samples.

Results

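The genes described here are 59 enzymes and enzyme subunits of amino acid biosynthesis in the budding yeast Saccharomyces cerevisiae. They were chosen by gene symbol and pathway, and all 59 had named spots on both array designs, which carried 5583 and 5539 named genes. Budding yeast can make all the amino acids it needs from central metabolites and ammonium. When an amino acid runs short, the transcription factor Gcn4 raises the transcription of enzyme genes in many of these pathways at once, and each pathway is also held back by its end product. The messages of these enzymes have to leave the nucleus like any other mRNA, and Yra1, an essential RNA-binding adaptor, hands mRNA to the export receptor Mex67.

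RNA that co-purified with Yra1 carrying a zz tag was compared with RNA that co-purified with the zz tag alone, on 5 two-channel spotted arrays (arrays 1 to 5). The zz tag is an affinity handle derived from the immunoglobulin-binding domain of protein A, and the tag alone served as the control immunoprecipitate. All 5 arrays formed 1 group. Per the labels, channel 2 held zzYra1-bound RNA on arrays 1, 2 and 5, while channel 1 held it on arrays 3 and 4. Strain, genotype, medium and growth conditions were not stated, so the supply of amino acids to the cells is unknown. The titles give arrays 4 and 5, of opposite orientation, 1 common day, and whether they share RNA was not stated; they were counted as 2 arrays. Nothing states that the arrays came from separate cultures, and p-values therefore reflect array-to-array spread alone, which may be technical.

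Values are log2 ratios of the channels with the median gene of the array set to 0, so that a value of 1 is a ratio 2 times that of the median gene. Which immunoprecipitate was the numerator is not given, and a sign does not say which of them held more of an RNA. The standard deviation of these values over genes was 2.51 on array 4 and between 0.91 and 1.14 on the others. YRA1 itself had a value on array 3 only (0.63), which gives no check of the tagged protein. Without intensities, signal over background could not be judged, and the precision is limited by the number of arrays.

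A larger share of the amino acid biosynthesis genes than of all genes had a value on arrays 4 and 5, and a smaller share on array 1. On array 5, 22 of the 59 (37.3%) had a value, beside 19.8% of all genes of that table. On array 4 the count was also 22 (37.3%), beside 23.9% of all genes. Array 1 ran the other way, with 19 of 59 (32.2%) beside 44.3%. On the table of arrays 1 to 3, 5 of the 59 members (8.47%) had more than 1 spot, beside 19.8% of all genes, and counted per spot the shares on array 1 were 31.3% and 40.4%. Where every spot of a gene had to have a value, the shares came to 30.5% beside 34.4% on array 1, 27.1% beside 16.4% on array 4 and 22.03% beside 13.2% on array 5. The shares on array 2 (31 genes, 52.5%, beside 51.1%) and array 3 (57 genes, 96.6%, beside 97.6%) lay close to those of all genes. Why a spot has no value is not stated, and these shares were not tested.

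Which enzymes are listed changed the share. A further 32 enzymes of amino acid synthesis with named spots, among them those for cysteine, proline and glycine, had values for 2 on array 4 (6.25%) and 6 on array 5 (18.8%). With both lists joined, 24 of 91 genes (26.4%) had a value on array 4 and 28 (30.8%) on array 5. On array 4 the joined share lay near that of all genes, and on array 5 it lay above it.

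Arrays 4 and 5 shared 13 of the amino acid biosynthesis genes with a value, which was 59.1% of the 22 on each. For all genes the overlap was 41.2% of those on array 4 and 49.7% of those on array 5. Of the 59 genes, 2 had a value on all 5 arrays, HIS3 and ARO4, and 9 had a value on 4 arrays. A further 20 had values on 3 arrays, 18 on 2 and 9 on 1. ARO3, 1 of the 2 genes for the first enzyme of the shikimate pathway, had none. Over all arrays 151 of 295 possible values were deposited (51.2%), beside 47.3% for genes on both tables.

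The pathways differed most in the sulfur genes. Sulfate is activated, reduced to sulfide and joined to a carbon chain to make homocysteine and then methionine. None of the 7 sulfur genes had a value on arrays 1, 4 or 5, and 2 of 7 did on array 2, although all 7 did on array 3. Over the 5 arrays that made 9 of 35 possible values (25.7%), while the other pathways lay between 50.0% and 60.0%. Of the 10 members with no value outside array 3, 5 were sulfur genes (MET2, MET6, MET10, MET16 and MET17), and the others were ARG1, HIS1, HIS4, ILV1 and ARO3. Of all 5583 genes there, 1041 had no value outside array 3, so that 83.1% of members and 81.4% of all genes had one. Of the 7 lysine genes, 6 were measured on array 5 and 2 on array 4, and of the 5 genes of threonine and homoserine 4 were measured on array 4. No arginine gene had a value on array 5.

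**Figure D1:**
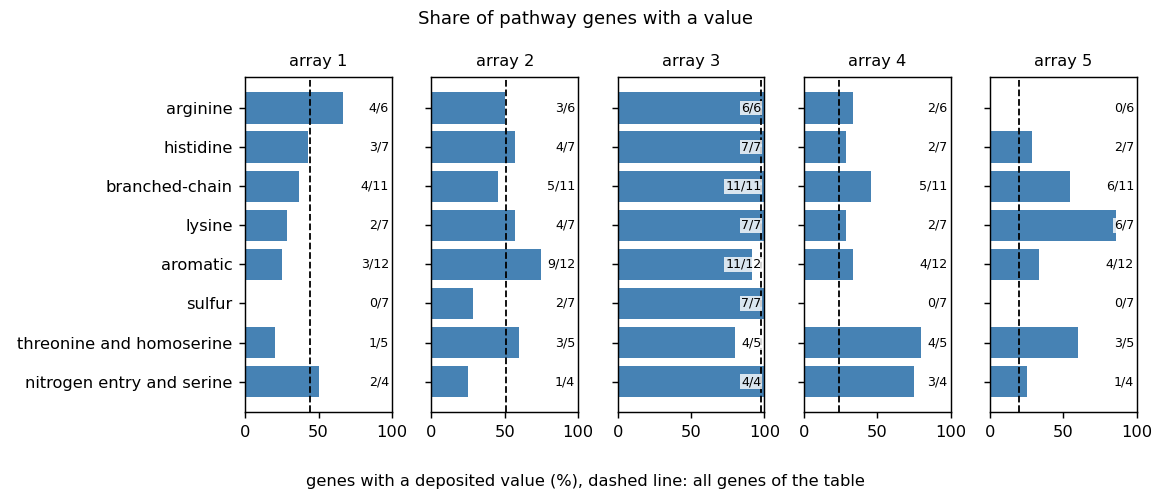
Share of the genes of each amino acid pathway with a deposited value (x axis, percent) on each of the 5 arrays, with counts at the right and a dashed line at the share of all genes of the table. The sulfur genes are at 0 of 7 on arrays 1, 4 and 5, and the lysine genes reach 6 of 7 on array 5.

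Where the genes were measured, the group as a whole lay close to the middle of each array. The median member was at -0.19, -0.0014, -0.026, -0.0069 and 0.023 on arrays 1 to 5. Members lay above and below the array median in near equal numbers, with 9 and 10 on array 1, 15 and 16 on array 2, 28 and 29 on array 3, and 11 and 11 on both arrays 4 and 5. Centring on the mean gene, which moves the median of all genes on array 1 by -0.22, put the members there at -0.41, so that their distance from the median gene stayed the same. With spots compared with nearby spots of the slide, the medians of arrays 4 and 5 were 0.21 and 0.24, over the 13 and 10 members that had enough measured neighbours.

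Single members lay far out in both directions. More than 1 log2 unit above the median were 2 of 19 members on array 1 (10.5%, beside 14.6% of all measured genes), 4 of 31 on array 2 (12.9%, beside 12.8%) and 8 of 57 on array 3 (14.0%, beside 12.4%). On array 4 there were 9 of 22 (40.9%, beside 32.7%) and on array 5 there were 5 of 22 (22.7%, beside 20.8%). More than 1 unit below were 1 member on array 1 (5.26%, beside 4.2%), 2 on array 2 (6.45%, beside 8.13%), 10 on array 3 (17.5%, beside 13.4%), 8 on array 4 (36.4%, beside 35.1%) and 1 on array 5 (4.55%, beside 15.4%). These shares were near those of all genes on arrays 1, 2 and 3. The lower tail of array 5 held only TRP5 (-1.18).

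**Figure D2:**
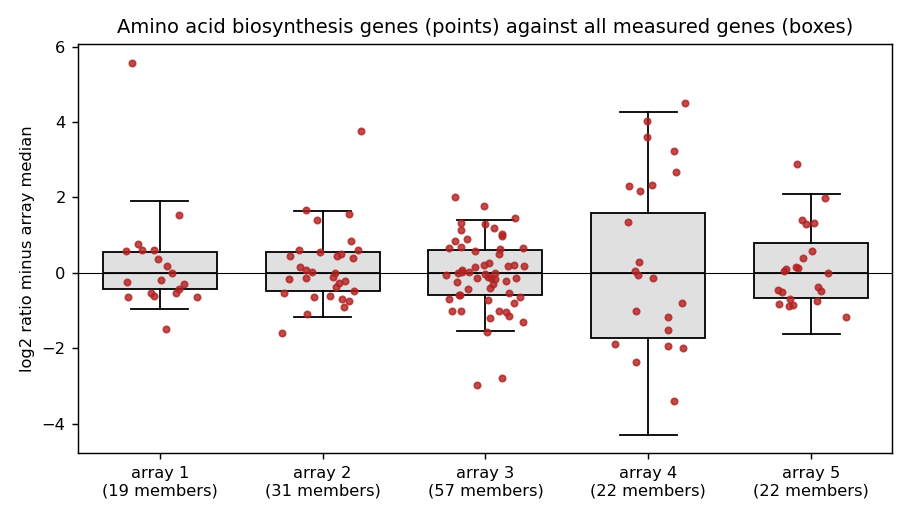
Centred log2 ratios (y axis) of the measured amino acid biosynthesis genes (points) on arrays 1 to 5, over boxes for all measured genes (quartiles, with whiskers at the 5th and 95th percentiles). The points of array 4 spread from -3.41 to 4.50, like the box behind them, and ILV3 stands at 5.58 on array 1.

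The arginine genes showed no common sign on any array with more than 2 of them measured. CPA1 encodes the small subunit of the carbamoyl phosphate synthetase that serves arginine synthesis. It lay at -1.49, 3.76, 0.88 and 0.29 on arrays 1 to 4, the lowest of all members on array 1 and the highest on array 2. ARG3, for ornithine carbamoyltransferase, which joins carbamoyl phosphate to ornithine, lay at 0.77, -1.60 and -2.79 on arrays 1 to 3. On each of these arrays the 2 genes of consecutive steps had opposite signs. ARG2, for acetylglutamate synthase at the head of the ornithine branch, lay between -0.25 and 0.56 on arrays 1 to 3. ARG8, for acetylornithine aminotransferase, was at -0.29 on array 1 and -0.13 on array 3. For the last steps, ARG1 (argininosuccinate synthetase) was at 0.21 on array 3 and ARG4 (argininosuccinate lyase) at -0.43 on array 3 and -1.51 on array 4.

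All but 1 of the 7 histidine genes lay below the median on array 3. These were HIS2 (-2.97), HIS7 (-1.03), HIS4 (-1.02), HIS5 (-0.59), HIS1 (-0.41) and HIS6 (-0.21), and the pathway median was -0.59 there and -0.20 with spots compared with nearby spots. HIS2, for histidinol phosphatase, was the lowest member of array 3 and lay at 1.67 on array 2, the highest histidine gene there. HIS3, for imidazoleglycerol-phosphate dehydratase, lay at -0.26, -1.09, 0.0052, -0.070 and -0.76 on arrays 1 to 5. It was below 0 on all 3 arrays with zzYra1 in channel 2 and within 0.1 of 0 on both others. Against its slide neighbours HIS3 was at -0.0085, -0.71, -0.20, -0.77 and 0.33, which leaves no common sign on those 3 arrays. HIS3 is a common selectable marker of laboratory strains, as are LEU2 and TRP1, and whether these genes were intact in the cells used was not stated. HIS7, for imidazole glycerol phosphate synthase, lay at -0.60, -1.03, -0.79 and 0.15 on arrays 2 to 5. HIS6, for the isomerase before it, lay at 0.36 and -0.49 on arrays 1 and 2, and HIS5, for the aminotransferase, at -0.62 on array 1.

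In the branched-chain pathway, which makes isoleucine, valine and leucine partly inside mitochondria, the extreme value was that of ILV3. This gene for dihydroxyacid dehydratase lay at 5.58 on array 1, the highest value of any member on any array, and at 1.12, -1.01 and -0.39 on arrays 3, 4 and 5. Its spot on array 1 had fewer than 5 measured neighbours, and it was a single spot with no duplicate. ILV5, for the reductoisomerase, lay at 0.54, -0.81, -2.38 and -0.82 on arrays 2 to 5, below the median on 3 of 4 arrays. ILV2 and ILV6 encode the catalytic and regulatory subunits of acetolactate synthase. They lay at -0.64 and 0.0003 on array 3 and at -0.48 and 1.28 on array 5, so the 2 subunits differed on array 5 by more than their duplicate spots did. ILV2 was at 2.18 on array 4, and ILV1, for threonine deaminase, was measured on array 3 only (-0.13).

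For leucine, LEU4 and LEU9 encode isopropylmalate synthases. LEU4 lay at -0.64, 1.20 and -0.0060 on arrays 1, 3 and 5, and LEU9 at 0.19 and 4.02 on arrays 3 and 4. LEU1, for the isomerase of the next step, was at -0.43, -0.23 and 0.66 on arrays 1 to 3, the last a mean of spots at -0.24 and 1.57, and LEU2, for the dehydrogenase, lay at -0.54, -0.16 and 1.41 on arrays 2, 3 and 5. BAT1, for the mitochondrial branched-chain aminotransferase, lay below the median on all 4 arrays that measured it, at -0.53, -0.28, -0.54 and -1.88 on arrays 1 to 4. The array 4 value was -0.31 against its slide neighbours. Its cytosolic counterpart BAT2 was at 0.017 on array 2 and -1.15 on array 3.

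**Figure D3:**
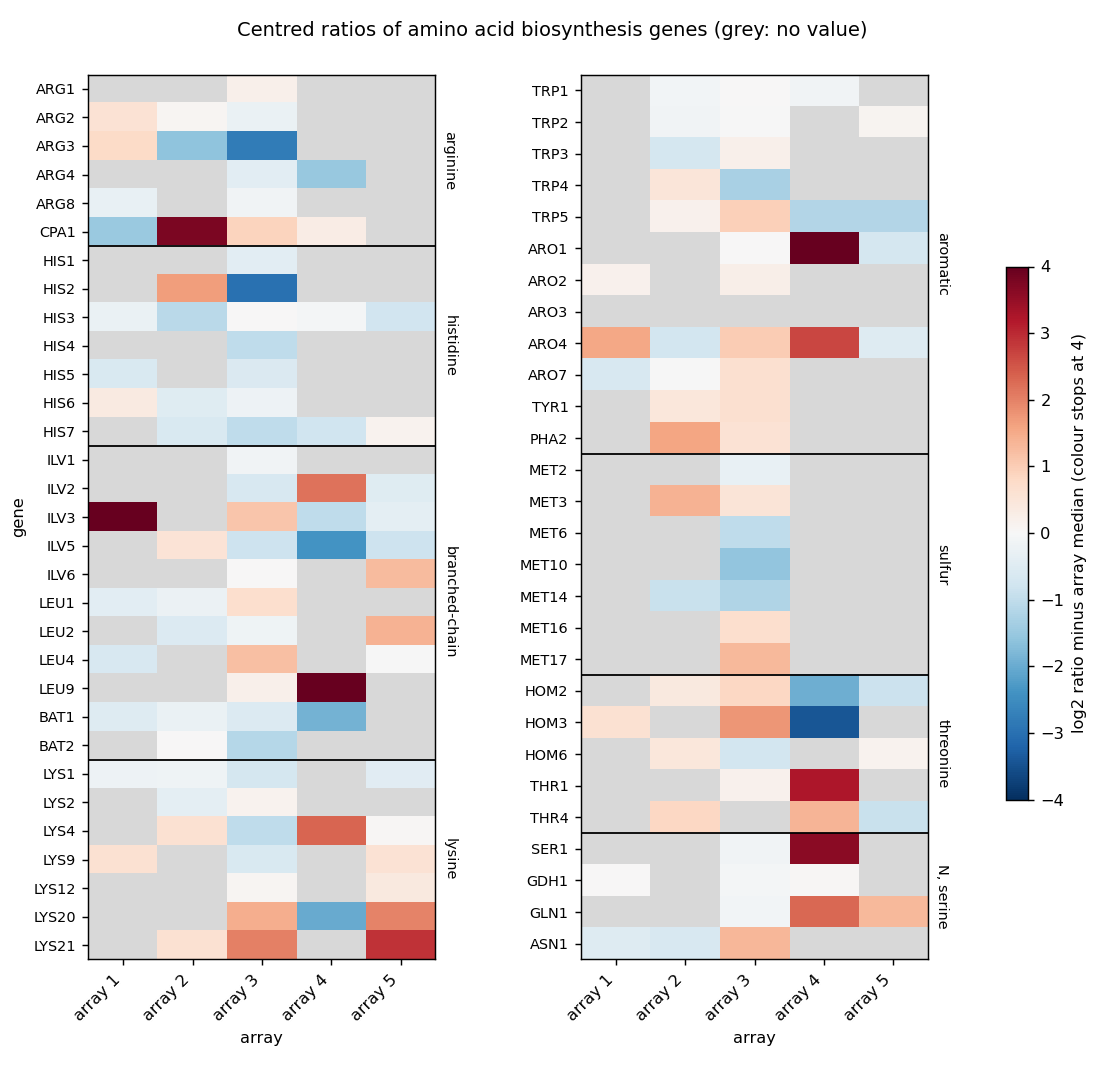
Centred log2 ratio (colour) of each of the 59 genes (rows, by pathway) on arrays 1 to 5 (columns), with grey for no value and colours that stop at 4 units on either side. Of the 31 genes measured on 3 or more arrays, 3 keep 1 sign (BAT1, LYS1 and LYS21), or 9.68% beside 18.6% of all genes so measured. Of the 18 measured on 2 arrays, 12 do, or 66.7% beside 53.0% of all genes.

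Lysine is made in fungi by the aminoadipate route, which begins with homocitrate synthase. Its 2 genes, LYS20 and LYS21, were the highest lysine genes on arrays 3 and 5. On array 3 LYS20 lay at 1.45 and LYS21 at 2.02, and on array 5 they lay at 1.97 and 2.89. LYS21 was the highest of all members on both arrays and also above the median on array 2 (0.61), but at -0.37 there against its slide neighbours. LYS20 was at -2.01 on array 4. Because the isozymes are closely related, cDNA of one gene may bind the spots of the other, and the 2 genes cannot be counted as independent. Array 3 has zzYra1 in channel 1 and array 5 in channel 2, so the same sign on both means opposite directions if the numerator is a fixed channel.

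The later lysine genes lay nearer the median than LYS20 and LYS21 on arrays 3 and 5, but not on array 4. LYS1, for the last step, lay below it on all 4 arrays that measured it, at -0.19, -0.16, -0.70 and -0.46 on arrays 1, 2, 3 and 5, and against slide neighbours it was at 0.11 on array 2. LYS4, for homoaconitase, lay at 0.61, -1.02, 2.34 and 0.052 on arrays 2 to 5. LYS9, for the saccharopine dehydrogenase before the last step, was at 0.60, -0.60 and 0.59 on arrays 1, 3 and 5. LYS12, for homoisocitrate dehydrogenase, was at 0.07 and 0.38 on arrays 3 and 5. LYS2, for aminoadipate reductase, was at -0.39 and 0.14 on arrays 2 and 3.

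Among the aromatic genes, ARO4 was the only member above 1 log2 unit on both arrays with zzYra1 in channel 1. Of 21 members measured on arrays 3 and 4, 1 was beyond 1 unit with the same sign on both, beside 9.62% of all genes measured there. ARO4 encodes the tyrosine-inhibited enzyme of the first shikimate step. It lay at 1.54, -0.74, 1.02, 2.68 and -0.52 on arrays 1 to 5, high on 3 arrays and low on the other two. Set against its slide neighbours it was at 0.79, -0.81, 0.78 and -0.20 on arrays 1 to 4, so that the value of array 4 was no longer above 0. The counterpart gene ARO3, for the phenylalanine-inhibited enzyme, had no value to compare.

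ARO1 encodes the pentafunctional enzyme of the next 5 steps. It lay at 0.022 on array 3, 4.50 on array 4, the highest member there, and -0.69 on array 5. ARO2 (chorismate synthase) lay at 0.18 and 0.25 on arrays 1 and 3, where its spots read -0.52 and 0.88, and -0.21 and 0.71. ARO7 (chorismate mutase) lay at -0.64, -0.0014 and 0.65 on arrays 1 to 3. In the tyrosine and phenylalanine branches, TYR1 was at 0.45 and 0.63 and PHA2 at 1.57 and 0.59 on arrays 2 and 3. In the tryptophan branch, TRP5, for tryptophan synthase, lay at 0.17, 0.96, -1.18 and -1.18 on arrays 2 to 5. TRP1, TRP2 and TRP3, for earlier steps, stayed between -0.71 and 0.21 on every array that measured them. TRP3 on array 3 was a mean of spots at -0.39 and 0.82, and TRP1 on array 4 of spots at 0.42 and -0.68. Against slide neighbours the range was not kept. TRP1 was then at -0.35, 0.13 and -1.35 on arrays 2 to 4, and TRP2 at -0.94, 1.23 and 1.22 on arrays 2, 3 and 5. TRP3 was at -0.075 and 0.75 on arrays 2 and 3. TRP4 lay at 0.50 on array 2 and -1.29 on array 3. On array 3, 9 of 11 measured aromatic genes lay above the median.

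The sulfur genes could be described on array 3 almost alone. MET17, for the sulfhydrylase that takes up sulfide, was the highest at 1.30, and MET16 (PAPS reductase) was at 0.68 and MET3 (ATP sulfurylase) at 0.50. MET10 (a sulfite reductase subunit) was the lowest at -1.57, and MET14 (adenylylsulfate kinase) was at -1.20, MET6 (methionine synthase) at -1.02 and MET2 (homoserine acetyltransferase) at -0.31. The 7 genes thus spanned 1.30 to -1.57 with no common sign. On array 2 the first 2 enzymes of sulfate activation lay on opposite sides, MET3 at 1.39 and MET14 at -0.91, as they did on array 3.

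The threonine and homoserine genes turn aspartate into homoserine and threonine. HOM3, for aspartate kinase, the first and feedback-controlled step, lay at 0.61, 1.76 and -3.41 on arrays 1, 3 and 4, the lowest member of array 4. Against its slide neighbours it was at -1.65, 0.67 and 0.21, so that both the array 1 and the array 4 values turned sign. HOM2, for the dehydrogenase of the second step, lay at 0.39, 0.84, -1.95 and -0.86 on arrays 2 to 5. HOM6, for homoserine dehydrogenase, lay at 0.44, -0.74 and 0.13 on arrays 2, 3 and 5. THR1 (homoserine kinase) was at 0.18 and 3.24 on arrays 3 and 4, and THR4 (threonine synthase) at 0.83, 1.34 and -0.88 on arrays 2, 4 and 5.

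The remaining genes bring nitrogen into amino acids or make serine. GDH1, for the glutamate dehydrogenase that assimilates ammonium, lay at 0.0003, -0.072 and 0.056 on arrays 1, 3 and 4, the narrowest range of any member measured on 3 or more arrays. The array 4 value was a mean of spots at -0.21 and 0.32, which lie further apart than that range. GLN1, for glutamine synthetase, was at -0.11, 2.29 and 1.31 on arrays 3, 4 and 5. The array 4 value was at -0.87 against its slide neighbours. ASN1, for asparagine synthetase, lay at -0.53, -0.65 and 1.32 on arrays 1 to 3, and SER1, for phosphoserine aminotransferase, at -0.15 and 3.61 on arrays 3 and 4.

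Duplicate spots show how much of this is error within an array. Over all genes with 2 measured spots, their median difference was 0.86, 0.75 and 1.03 log2 units on arrays 1 to 3, and on array 3 it was thus about as large as the standard deviation over genes. On the table of those arrays only ARO2, ILV5, LEU1, TRP3 and TRP5 had 2 spots, and the 4 members with both measured on array 3 differed by 1.07 in the median and by 1.82 at most, so most member values of array 3 rest on 1 spot. The table of arrays 4 and 5 carries 2 spots of every member. On array 5 both spots had a value for 13 members, and they differed by 0.18 log2 units in the median and by at most 0.56. On array 4 this held for 16 members, with a median difference of 0.58 and a largest of 2.38. Over all genes the medians were 0.28 on array 5 and 0.45 on array 4. The 2 spots of LYS21 on array 5 read 3.18 and 2.61, and those of LYS20 read 2.07 and 1.88. On array 4 the spots of ARO1 read 4.01 and 4.99 and those of HOM3 -3.10 and -3.72, while LYS4 read 3.53 and 1.15 and HIS7 0.38 and -1.96. Each of LEU9, SER1, THR1, ARO4, HOM2 and TRP5 rested on 1 spot on array 4. The large values of LYS20, LYS21, ARO1 and HOM3 thus repeated between spots of 1 array, which differs from repeating between arrays. Agreement of 2 spots does not by itself show a value to be sound, and an effect of slide position was not tested. HOM3 on array 4 was at 0.21 against its slide neighbours. ARO1 on array 4 and LYS21 on array 5 were at 3.92 and 3.52 by that measure, and LYS20 had too few measured neighbours on arrays 4 and 5.

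**Figure D4:**
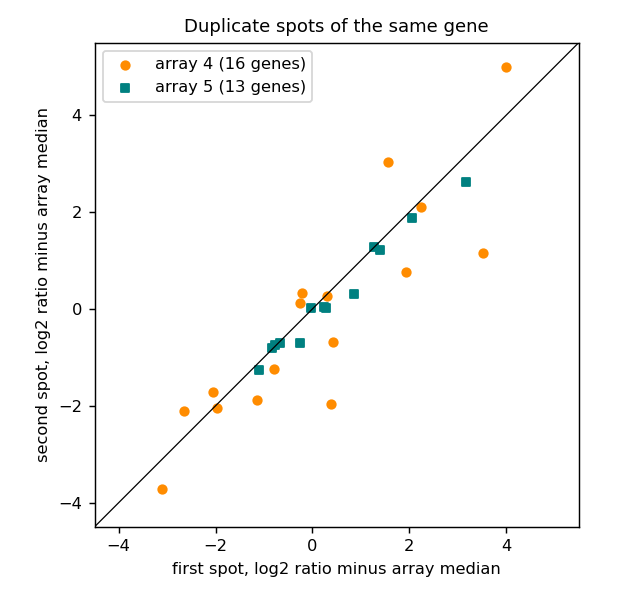
Centred log2 ratio of the first (x axis) and second (y axis) spot of each member with both spots measured, on array 4 (16 genes) and array 5 (13 genes), with the line of equality. The points of array 5 lie within 0.56 of the line, and those of array 4 depart from it by up to 2.38.

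Across the arrays no amino acid biosynthesis gene differed from the median gene past the spread between arrays. The fit in limma took genes with a value on at least 4 arrays, 725 in all and 11 of the 59, and adjusted p-values over all 725 by the Benjamini-Hochberg method. Because the numerator is unknown, each gene had 2 estimates. In the channel reading the numerator is taken to be the same channel throughout, and arrays 3 and 4 change sign. In the other reading the values run the same way on all arrays as deposited. In both readings 0 of the 11 passed the adjusted threshold of 0.05, and 0 of the 11 had an unadjusted p under 0.05. The background was 0.0% of all genes in each reading, with 19 and 25 of 725 genes under an unadjusted 0.05. Leaving out array 3 left array 4 as the only array with zzYra1 in channel 1, so its spread did not enter the error. The 11 members then fitted included THR4 in place of LYS1. Their SE was pooled over 602 genes, at 0.67 with 3 arrays and 0.63 with 4. It does not measure the spread of a single gene, and only effect sizes are given for this fit. In the channel and the other reading ILV3 lay at 1.80 and 0.79, and ARO4 at -1.29 and 1.38. The ILV3 estimates rest on 5.58, -1.01 and -0.39 on arrays 1, 4 and 5. Once arrays were also scaled to equal spread, chosen after seeing the data, ILV3 lay at 2.18 and 1.75.

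ARO4 came closest in both readings of the fit over 5 arrays. Its estimate was -0.88 ± 0.53 (log2, SE, 5 arrays; 95% interval -2.08 to 0.32; limma adjusted p = 0.905) in the channel reading, with the turned sign below 0 on 4 of 5 arrays. In the other reading it was 0.97 ± 0.53 (interval -0.23 to 2.17; limma adjusted p = 0.903), with 3 of 5 arrays above 0. Without array 4 these became -0.46 and 0.56, with equal array spread -0.46 and 0.72, and against slide neighbours -0.15 and 0.14. HIS3, also measured on all arrays, lay at -0.33 ± 0.44 and -0.37 ± 0.44 in the 2 readings. The widest interval was that of ILV3, at 1.27 ± 0.92 and 1.33 ± 0.92, and without array 1 these became -0.22 and -0.16. ILV5 lay at 0.73 ± 0.56 and -0.87 ± 0.56, and BAT1 at 0.40 ± 0.53 and -0.80 ± 0.53. In the channel reading ILV5 and BAT1 came to 0.34 and 0.066 without array 4, and to 1.12 and 0.74 without array 3. BAT1 and LYS1 had the same sign on every array that measured them as deposited, which the turned signs do not keep.

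The other 6 tested genes lay between -0.20 and 0.34 in the channel reading. CPA1 was at 0.27 ± 0.81 there and at 0.86 ± 0.81 in the other reading, and without array 2 at -1.04 and -0.45. HIS7 was at 0.34 ± 0.51 and -0.57 ± 0.51, and LYS1 at 0.21 ± 0.58 and -0.48 ± 0.58. HOM2, LYS4 and TRP5 were at 0.16, -0.16 and -0.20 there, and with deposited signs at -0.40, 0.50 and -0.31. Of the 11 estimates, 7 were positive in the channel reading and 4 with deposited signs, with medians of 0.21 and -0.37, beside 0.056 and 0.074 over all genes tested. The median half-width of a member's 95% interval, which is not adjusted for the number of genes, was 1.32 log2 units. For a typical member, smaller differences could thus not be told from 0 even before adjustment. The adjusted threshold asks for larger differences still.

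**Figure D5:**
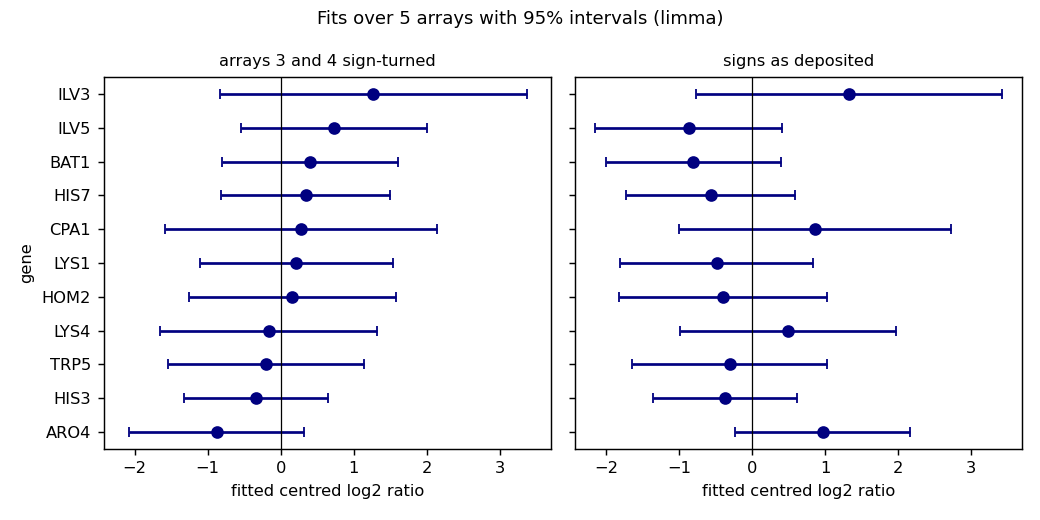
Fitted centred log2 ratio (x axis) with its 95% interval from limma for the 11 amino acid biosynthesis genes with a value on at least 4 arrays (y axis), with the signs of arrays 3 and 4 turned (left) and with signs as deposited (right). All 22 intervals include 0.

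Arrays of one orientation run the same way under either reading. Over arrays 1, 2 and 5, 3 members were measured on every array (ARO4, HIS3 and LYS1), and 0 passed in limma (background 0.0% of 281 genes), with 0 of the 3 and 6 of the 281 under an unadjusted 0.05. HIS3 lay at -0.70 ± 0.38 there (limma adjusted p = 0.831) and was below 0 on 3 of 3 arrays. HIS3 and LYS1, 2 of the 3, kept 1 sign on these arrays, beside 23.8% of all genes, and against slide neighbours neither did. Over arrays 3 and 4, 21 members were measured on both and 0 passed (background 0.0% of 1300 genes), with 0 of the 21 and 65 of the 1300 under an unadjusted 0.05. Of the 21, 9 kept 1 sign (5 above and 4 below 0), beside 49.4% of all genes. The largest estimates were those of ARO1 (2.26 ± 1.36), LEU9 (2.11 ± 1.36) and ARO4 (1.85 ± 1.36), with limma adjusted p-values between 0.966 and 0.969. In this fit all 21 members had the same SE of 1.36, pooled over the 1300 genes. It does not measure the spread of a single gene, and the p-values here only rank the means.

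Regulators of the same metabolism passed no test either, and its transporters could mostly not be tested. GCN4, the gene of the general control activator, lay at -0.78, -1.42, 3.02 and 0.34 on arrays 2 to 5, and its estimates were -0.51 ± 0.75 and 0.29 ± 0.75 in the 2 readings. Of 24 regulators, 4 could be tested over 5 arrays and 0 passed in limma, 0 of them with an unadjusted p under 0.05. The smallest p-values were those of ASC1, whose product is a ribosome-bound regulator of Gcn4 activity (-1.03 ± 0.61 in the channel reading, limma adjusted p = 0.905), and MCM1, a transcription factor that takes part in arginine control (-0.80 ± 0.52, limma adjusted p = 0.905). In the other reading the second smallest was that of ARG81, the arginine sensor (-0.37 ± 0.60, limma adjusted p = 0.944). None of 20 amino acid permease genes had enough values for the fit over 5 arrays. Over arrays 3 and 4 only AGP1 was tested, at -1.26 (limma adjusted p = 0.981). Of the further 32 enzymes 1 was tested, SHM2, for a serine hydroxymethyltransferase, at 0.33 ± 0.73 and 0.63 ± 0.73 (limma adjusted p = 0.943 and 0.906).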

How the data were processed

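The authors deposited 1 log10 ratio per spot and array in 2 tables, per the file headers (7680 spots for arrays 1 to 3, 12800 for arrays 4 and 5). The scale was settled from the values: of 300 drawn per array (beyond 0.02 on either side of 0), 19.7% to 92.3% were fractions of whole numbers (denominators to 3000, tolerance 6e-10 on the log scale) when read as log10, and at most 1% as log2 or natural logarithms. Image analysis, background correction, numerator and genome build were not stated (not given in the sources used here). Symbols came from the platform annotation, matched through gene identifiers to the R64 gene table for 5578 of 5583 and 5534 of 5539 genes. Deposited log10 values were multiplied by 3.32, averaged per gene, and centred so that each array's median gene was 0, with no other normalisation. Repeated rows of a spot were averaged; 1 row lacked a spot number and was dropped. limma 3.58.1 (R 4.3.3) fitted orientation and mean together, tested first on simulated data. For the slide check each spot was set against the median of up to 10 spots on either side by spot number, with at least 5 measured. The members and lists were chosen with earlier results of these data known. Named were the members tested over 5 arrays, the highest and lowest of each pathway per array, paralogue pairs and, per regulator or enzyme list, the 2 smallest p-values; GCN4 and the other members were named beyond that rule.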

Additional observations from a re-analysis of the deposited data

Results flagged for a closer look

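Among 28 series of 4 or 5 values, one per array, 4 contained a value well separated from the rest. A rate of 1 in 20, or 1.4 of 28, would hold for independent series from arrays of like spread and coverage. These arrays were not alike, as array 4 had the widest spread and array 3 the most values, and the series share genes. The count of 4 can therefore not be set against 1.4 as a test. BAT1 lay at -1.88 on array 4, against -0.54 to -0.28 on arrays 1 to 3. With equal array spread it was -0.81 on array 4, against -0.78, -0.37 and -0.64, and against slide neighbours it was -0.31, so that it no longer stood apart. The median of the amino acid biosynthesis genes was -0.19 on array 1, against -0.026 to 0.023 on the others. The share of branched-chain genes with a value was 100% on array 3, against 36.4% to 54.5% on the others, and that of sulfur genes was 100% on array 3, against 0% to 28.6%. Array 3 had values for 97.6% of all genes.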

How the results depend on the processing

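The number of members that passed in limma was 0 in both readings under every alternative run. Over all genes the calls ranged from 0 to 68 in the channel reading and from 0 to 80 in the other when 1 array was left out, the highest counts coming without array 3. With equal array spread as well, chosen with the data in view, 0 passed without array 3. Equal spread also gave 1 call over arrays 3 and 4, BGL2, which is no member. Of 292 alternative estimates of the 11 tested members, 271 kept their sign and 21 turned it. The 271 overstate stability, because some settings could not turn a sign. Settings that changed only which genes were fitted (4 and 22 estimates) or how the spread was estimated (22) repeat the main estimate by construction. So do runs that left out an array on which the gene had no value. For genes with 2 arrays of each orientation, runs without the orientation term repeat it as well. Leaving out 1 array gave ranges that cross 0: -1.04 to 1.59 for CPA1, -0.54 to 0.86 for HOM2, -0.22 to 2.76 for ILV3, -1.004 to 0.68 for LYS4 and -0.74 to 0.34 for TRP5 in the channel reading, and -0.45 to 2.17, -1.09 to 0.30, -0.16 to 2.82, -0.34 to 1.33 and -0.84 to 0.23 for the same genes with deposited signs. In the channel reading HOM2 and LYS4 were at -0.12 and 0.27 with equal spread, LYS1 was at -0.028 without the orientation term, LYS1 and LYS4 were at -0.028 and 0.16 with arrays 4 and 5 averaged, HIS3 and LYS1 were at 0.18 and -0.019 against slide neighbours, and TRP5 was at 0.020 with equal spread and without array 3. The cause of these turns was not tested.

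Of 95 alternative medians, 23 moved by more than the spread of that median over arrays. Centring on the mean gene gave -0.41 and -0.089 for the members on arrays 1 and 2, -0.47 for histidine and -0.010 for lysine on array 1, and equal spread gave -0.28 for the members on array 1. Such centring shifts every gene of an array by 1 constant, -0.22 on array 1 and -0.088 on array 2. Equal spread multiplies every gene of an array alike. These moves were therefore fixed in advance and do not concern the members in particular. Against slide neighbours, with fewer genes on arrays 4 and 5, the members lay at 0.081, 0.21 and 0.24 on arrays 3 to 5, histidine at -0.37, -0.20, -0.77 and 0.33 on arrays 2 to 5, and lysine at 0.0012, 0.74, 2.36 and 1.61 on the same arrays. Arginine lay at 1.74 on array 2, branched-chain at 1.43 on array 4, aromatic at -0.20 and 0.15 on arrays 4 and 5, threonine and homoserine at -1.65 and 0.67 on arrays 1 and 4, and nitrogen entry and serine at -0.87 on array 4. Some of these medians are 1 gene: HIS3 on arrays 4 and 5, LYS4 on array 4, HOM3 on array 1 and GLN1 on array 4. The arginine value is of 2 genes, without ARG3, and the branched-chain value of 3, without ILV3 and ILV5. Where genes dropped out, a move mixes the change of genes with the change of measure. The share of members with a value on array 5 fell from 37.3% to 29.7% by spots and to 22.03% where every spot had to have a value, and on array 4 to 32.2% and 27.1%. No paired analysis was possible because the arrays form 1 group; arrays 4 and 5, of the same day, were averaged instead. Without intensities, limits set by signal over background are unknown.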
